A study of Homo sapiens with 4 samples.

Results

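The 40 genes described here belong to the machinery of mitosis and were listed together with PTTG1, which encodes securin. They were chosen by name, as symbols in the gene table of the deposited count matrices, and all 40 were found among the 33538 genes listed. Single-cell RNA sequencing (scRNA-seq) had been done on HCEC 1CT, a line of human colonic epithelial cells immortalised with TERT and CDK4. The cells carried an shRNA that targets APC (shAPC) or its scrambled counterpart (shScr), were selected with puromycin after viral transduction in both cases, grew in the same medium with EGF, hydrocortisone, insulin, transferrin, selenite and 2% serum, and were harvested at day 3 or day 7 after transduction. This gave 4 libraries, with 1 library for each shRNA and day. Wherever 4 values follow each other below, they are those of shScr and then shAPC at day 3, and of shScr and then shAPC at day 7. The study asked what changes in the transcriptome soon after APC is lost, the first step of many colorectal tumours, and singled out PTTG1 as one of its candidate regulators from these same libraries.

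Securin holds separase, the protease that cuts cohesin between sister chromatids, in check until the chromosomes are aligned. The anaphase-promoting complex or cyclosome (APC/C), a ubiquitin ligase that shares only initials with the tumour suppressor APC, then marks securin and cyclin B for destruction with the help of CDC20, UBE2C and UBE2S. Most of the 40 genes are transcribed periodically, with low mRNA in G1 and a maximum in G2 and mitosis, so that their summed level in a culture depends both on how many cells are in those phases and on how much mRNA each of them holds.

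Because each group was 1 library, no difference below has a test or a p-value. Each ratio has a 95% counting interval, which covers the sampling of unique molecular identifiers (UMIs, single captured mRNA molecules) and neither the spread between cultures nor that between cells. Levels are UMIs summed over the kept cells of a library and given per 1000000 UMIs of those cells (CPM). A ratio below is the log2 of shAPC over shScr, or of day 7 over day 3. The kept cells held 28451455 to 39797418 UMIs per library, and the 40 genes together had 25130 to 45545 of them. The median depth was 35109, 49685.5 and 21029.5 UMIs per cell in shScr at day 3, shAPC at day 3 and shAPC at day 7, but 1330 in shScr at day 7, where 1681 of 2600 kept barcodes had fewer than 10000 UMIs. Those shallow barcodes carried little of the sums, since the cells of at least 10000 UMIs held 92.4% to 98.3% of all UMIs. The limit of 5% on mitochondrial UMIs left out 1551 barcodes of shAPC at day 7, 51.1% of that library, against 23.4% to 28.8% of the others. Between 2 and 25 barcodes occurred in both libraries of a pair, and leaving them out kept the median of the 40 genes at -0.68 at day 7 and 0.38 at day 3. APC itself was at 5.52 CPM in shAPC against 16.1 CPM in shScr at day 3 and at 6.61 against 19.1 CPM at day 7. The label of a colonic epithelial cell was only partly borne out by markers: KRT8, KRT18, KRT19, CLDN7 and CLDN4 had more than 3 UMIs in a library, the other 7 of 12 epithelial markers, EPCAM, CDH1 and CDX2 among them, did not, and all 7 mesenchymal markers were abundant, at a summed 8814 to 11385 CPM. Of 8 leukocyte and endothelial markers, PTPRC, CD3E, PECAM1 and CDH5 had 0 or 1 UMI per library, LYZ, VWF and KDR had 0 to 6, and CD68, a lysosomal protein abundant in macrophages, had 542 to 1035 UMIs (17.4 to 29.6 CPM). The part of any such cells in the results was not tested.

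The promoters of the genes were read from RefSeq windows on GRCh38.p14 that run from 250 bases before to 50 bases after the transcription start, and 34 of the 40 genes had at least 1 window. UBE2C, AURKA, TTK, BUB3, TPX2 and HMGB2 had none. The letters TTTGAA and TTTAAA, searched on both strands, are the usual forms of the cell cycle homology region (CHR), an element of late cell cycle promoters, and CCAAT is the box bound by NF-Y. TTTGAA or TTTAAA was in the windows of 28 of the 34 genes (82.4%), against 27.9% of all 27305 genes with a window. CCAAT was in those of 26 (76.5%), against 39.7% of all. Both stood close together, with the first base of CCAAT (either strand) 20 to 40 bases ahead of that of TTTGAA or TTTAAA, in 15 of the 34 genes (44.1%) against 1.46% of all genes. A gene with more windows had more chances to hold a motif, and a match is a description of letters rather than of a bound site. The stretches before the start are shown for PTTG1, for the 3 genes with the lowest and the 3 with the highest shAPC/shScr ratio at day 7 among those with at least 80 bases free of annotated exons there, each 5′ to 3′ on the gene's own strand, with these letters in capitals.
CDC20, chr1:43358861-43358980, plus strand: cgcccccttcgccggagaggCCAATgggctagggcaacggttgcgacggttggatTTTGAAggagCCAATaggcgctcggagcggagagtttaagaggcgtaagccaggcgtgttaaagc
CCNB1, chr5:69167030-69167134, plus strand: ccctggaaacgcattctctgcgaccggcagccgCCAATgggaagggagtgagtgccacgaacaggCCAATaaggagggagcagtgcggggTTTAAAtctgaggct
CENPA, chr2:26785936-26786026, plus strand: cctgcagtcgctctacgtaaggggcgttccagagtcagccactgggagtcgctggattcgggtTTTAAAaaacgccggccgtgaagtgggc
PTTG1, chr5:160421735-160421854, plus strand: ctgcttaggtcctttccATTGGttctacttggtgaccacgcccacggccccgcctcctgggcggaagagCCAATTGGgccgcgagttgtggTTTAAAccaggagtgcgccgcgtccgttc
TOP2A, chr17:40417897-40418016, minus strand: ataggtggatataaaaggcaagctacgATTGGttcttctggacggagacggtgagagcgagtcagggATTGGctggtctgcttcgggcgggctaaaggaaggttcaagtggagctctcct
CKAP2, chr13:52455868-52455971, plus strand: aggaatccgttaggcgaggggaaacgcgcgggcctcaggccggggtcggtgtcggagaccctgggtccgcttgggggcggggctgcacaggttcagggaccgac
KIF20A, chr5:138178992-138179111, plus strand: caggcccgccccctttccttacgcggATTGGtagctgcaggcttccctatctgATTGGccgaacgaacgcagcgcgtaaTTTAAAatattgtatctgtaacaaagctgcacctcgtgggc
In PTTG1 a CCAAT began 51 bases and TTTAAA 29 bases before the start, and in CCNB1 they began at 55 and 30 bases. KIF20A, whose level hardly differed between shAPC and shScr at day 7, also held the pair, with CCAAT on the other strand at 67 bases and TTTAAA at 41 bases. The CKAP2 stretch held none of the letters. The 15 genes with the close pair had a median day 7 ratio of -0.69 (range -1.29 to -0.10), and the 19 without it one of -0.61 (range -1.06 to -0.15).

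At day 7 all 40 genes were lower in shAPC than in shScr, by a median log2 ratio of -0.68, which is 0.64 below the median of all genes. Among the 9173 genes with a mean of at least 5 CPM, of which 36 of the 40 were part, 55.6% were lower in shAPC at day 7 and the median ratio was -0.04. The counting interval lay below 0 for 37 of the 40 genes, against 36.2% of all genes, and the other 3 were CDC25C, BUB1B and KIF20A. The ratio was at least 0.5 below the median of all genes for 24 of the 40, against 8.5% of all genes. The summed level of the 40 genes was 1458 CPM in shScr and 883 CPM in shAPC at day 7 (log2 ratio -0.72, interval -0.75 to -0.70). At day 3 the order was the opposite, with 1098 CPM in shScr and 1284 CPM in shAPC.

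The difference at day 7 covered every one of the 40 genes but was not even in size. The ratios ran from -1.29 for CDC20 to -0.10 for KIF20A with an SD of 0.30 over the genes, while the typical counting interval reached 0.18 to either side. Over the 9173 genes the SD was 0.40, so the list was not more uneven than all genes. For 26 of the 40 genes the interval did not include the median of the list, with 15 above it and 11 below it. The like share of all genes at day 7 is not given here. At day 3 the interval lay below the all-gene median for 34.3% of all genes and above it for 32.4%. By role, the median ratio was -0.89 for cyclins, CDK1 and its partners, -0.84 for securin and the APC/C route, -0.79 for checkpoint and kinetochore genes and -0.77 for mitotic kinases. It was smaller for chromatin genes (-0.53), for the central spindle and cytokinesis (-0.43) and for spindle proteins and motors (-0.35). Each role held only 3 to 8 genes, and most ranges overlapped. The ratios ran from -1.09 to -0.42 for cyclins, CDK1 and its partners and from -0.85 to -0.10 for the central spindle and cytokinesis. Those of securin and the APC/C route (-1.29 to -0.79) and of spindle proteins and motors (-0.69 to -0.15) did not overlap.

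**Figure D1:**
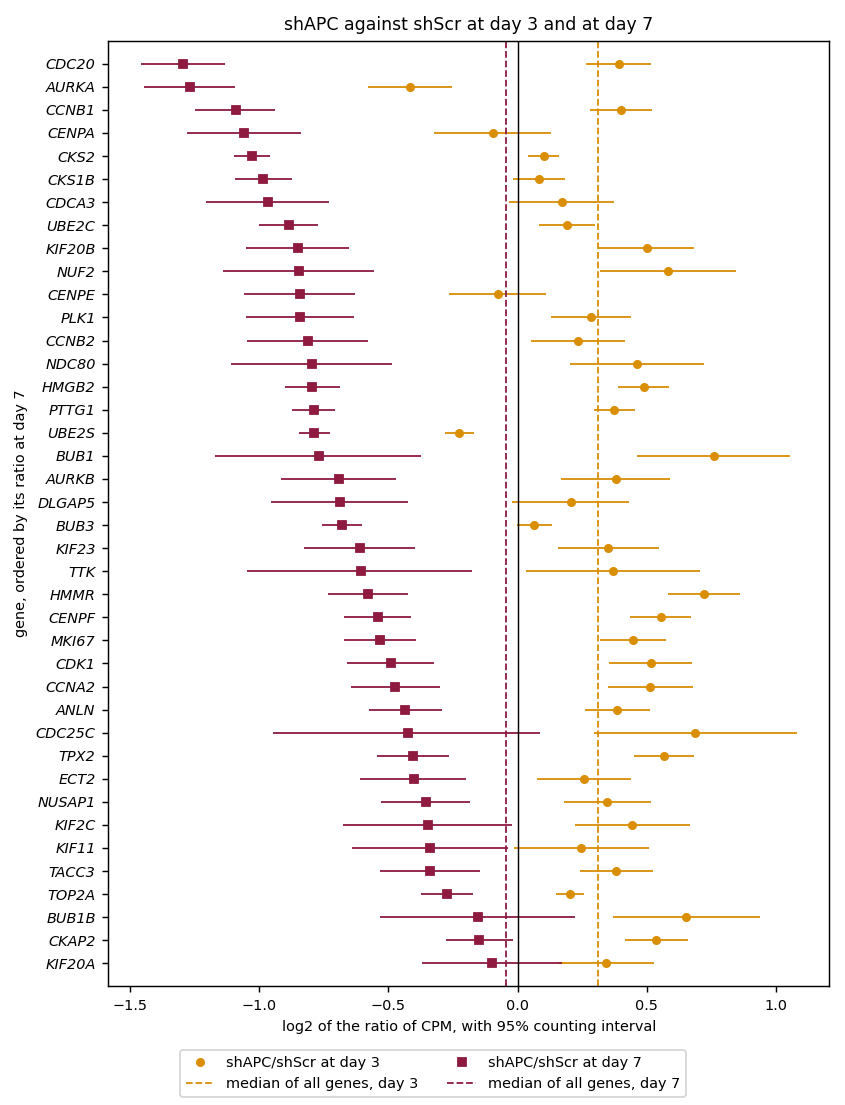
The log2 shAPC/shScr ratio of CPM (x axis) for each of the 40 genes (y axis, ordered by the day 7 ratio) at day 3 (circles) and day 7 (squares), with 95% counting intervals, and dashed lines at the median of all genes. All day 7 points lie left of 0, from -1.29 to -0.10, whereas the day 3 points scatter around the all-gene median of 0.31.

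PTTG1 (ENSG00000164611, chr5:160421855-160428739, plus strand, GRCh38) was at 61.0 CPM in shScr and 79.1 CPM in shAPC at day 3, and at 105 CPM in shScr and 60.8 CPM in shAPC at day 7. The shScr library at day 7 thus stood above the other 3, and the shAPC library at day 7 was level with shScr at day 3. The day 3 ratio was 0.37 (0.29 to 0.45), and the day 7 ratio was -0.79 (-0.87 to -0.70). Its near-identical paralogue PTTG2 had 3, 0, 3 and 0 UMIs in the same order of libraries, and how shared reads were assigned is not stated. CDC20, the activator that brings the APC/C to securin and cyclin B, was at 24.4, 32.0, 36.7 and 14.97 CPM. It had the lowest ratio of the list at day 7 (-1.29, -1.46 to -1.13), at 40.8% of the shScr level. UBE2C, the ubiquitin-conjugating enzyme that starts the chains, was at 34.6, 39.5, 59.2 and 32.1 CPM, and UBE2S, which extends them, at 154, 132, 208 and 121 CPM. UBE2S was thus lower in shAPC at both days (-0.22, -0.28 to -0.17 at day 3, and -0.79, -0.85 to -0.73 at day 7).

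Among the cyclins, the B-type genes had lower day 7 ratios than CCNA2 and CDK1. CCNB1, the cyclin that drives entry into mitosis with CDK1, was at 26.9 CPM in shScr and 35.4 CPM in shAPC at day 3 and at 36.7 and 17.2 CPM at day 7 (ratio -1.09, -1.25 to -0.94). CCNB2 was at 12.6, 14.8, 14.1 and 8.01 CPM (day 7 ratio -0.81, -1.05 to -0.58). CCNA2, which acts from S phase on, was at 13.5, 19.3, 22.5 and 16.2 CPM (-0.47, -0.65 to -0.30). For CDK1, the kinase itself, the levels were 14.4, 20.6, 24.0 and 17.0 CPM (-0.49, -0.66 to -0.32), so that the intervals of CCNB1 and CDK1 did not overlap, whereas those of CCNB2 and CCNA2 did. CKS2, a small subunit of the CDK complex, went from 111 and 119 CPM at day 3 to 168 CPM in shScr and 82.5 CPM in shAPC at day 7 (-1.03, -1.10 to -0.96). Its relative CKS1B had a day 7 ratio of -0.98, and CDCA3, which triggers mitotic entry, one of -0.97.

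The mitotic kinases were lower in shAPC at day 7 in 5 of 5 cases, and AURKA was already lower at day 3. AURKA, the centrosomal kinase that drives spindle assembly, was at 19.4 CPM in shScr and 14.6 CPM in shAPC at day 3 (-0.42, -0.58 to -0.25) and at 31.0 and 12.9 CPM at day 7 (-1.27, -1.44 to -1.09). PLK1, which acts from mitotic entry to exit, was at 16.9, 20.5, 18.1 and 10.1 CPM (day 7 ratio -0.84). AURKB, the kinase of the chromosomal passenger complex, was at 8.84, 11.5, 14.99 and 9.28 CPM (-0.69). The checkpoint kinases TTK and BUB1 were low, at 2.57 to 6.84 CPM in all libraries, with day 7 ratios of -0.61 and -0.77. Of the kinetochore genes, CENPA, the histone H3 variant of centromeres, was at 9.15, 8.56, 18.1 and 8.72 CPM, with shScr at day 7 standing alone above the other 3 libraries (day 7 ratio -1.06, -1.28 to -0.84). BUB1B, the checkpoint protein BubR1, was at 4.50, 7.07, 4.26 and 3.83 CPM, and its day 7 interval included 0 (-0.15, -0.53 to 0.22).

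The genes nearest to 0 at day 7 were KIF20A, CKAP2, BUB1B, TOP2A and TACC3. KIF20A, a kinesin of the central spindle, was at 11.5 CPM in shScr and 14.5 CPM in shAPC at day 3, and at 7.94 and 7.42 CPM at day 7 (-0.10, -0.37 to 0.17). CKAP2, a spindle microtubule protein, was at 24.2, 35.2, 34.0 and 30.7 CPM (-0.15, -0.28 to -0.02). TACC3, which stabilises spindle fibres, was at 19.3, 25.2, 17.0 and 13.5 CPM (-0.34, -0.53 to -0.14). TOP2A, the topoisomerase that untangles sister chromatids, was at 129 and 149 CPM at day 3 and at 60.5 and 50.0 CPM at day 7 (-0.27, -0.37 to -0.17). Of these 5 genes all but CKAP2 were lower in both day 7 libraries than in either day 3 library. MKI67, the proliferation marker that coats mitotic chromosomes, was at 23.3, 31.7, 35.3 and 24.4 CPM (-0.53, -0.67 to -0.39). The remaining genes had day 7 ratios of -0.85 (KIF20B) to -0.34 (KIF11). Over the whole list shScr at day 7 was the highest library for 26 genes, against 17.7% of all genes, and shAPC at day 7 the lowest for 30, against 36.9%.

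**Figure D2:**
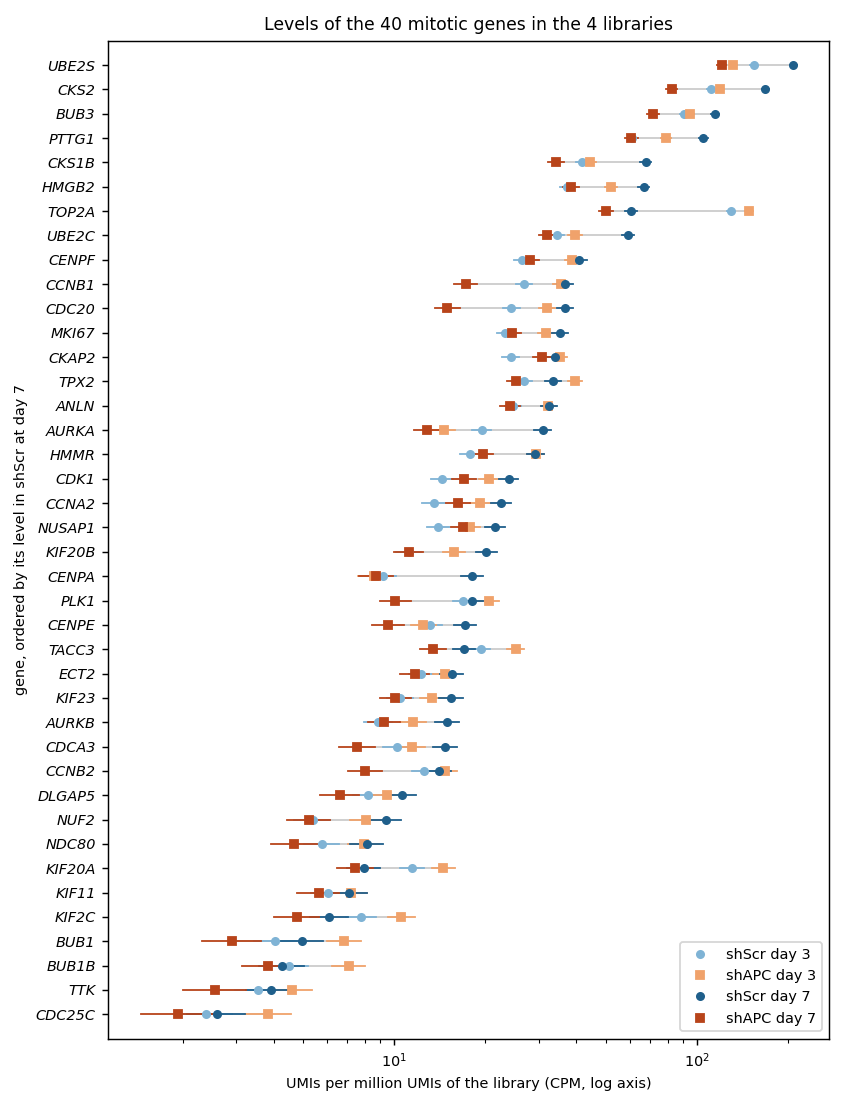
Level of each of the 40 genes (y axis, ordered by the level in shScr at day 7) in CPM on a log axis (x axis), 1 point per library with its exact Poisson 95% interval, circles for shScr and squares for shAPC. The dark circle (shScr at day 7) is the highest point for 26 genes and the dark square (shAPC at day 7) the lowest for 30, and TOP2A stands out by its high day 3 levels.

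At day 3 the 40 genes were not set apart from the rest of the transcriptome. The ratio was above 0 for 36 of them with a median of 0.38, but 81.5% of all genes were also above 0 and their median was 0.31, so that the list lay 0.06 above it. The lower 4 were UBE2S, AURKA, CENPA and CENPE. Relative to the all-gene median, 25 genes were above and 15 below, and the counting interval lay above it for 12 genes and below it for 9, against 32.4% and 34.3% of all genes. With the scaling by trimmed means (TMM) in place of total UMIs, 20 of the 40 were lower at day 3 and the list median was -0.0017, while all 40 stayed lower at day 7 with a median of -0.69. The day 7 ratio was below the day 3 ratio for 40 of 40 genes, against 82.2% of all genes, and the interval of that difference lay below 0 for all 40, against 62.3%.

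Seen along time in the kept cells, the list was higher at day 7 than at day 3 in shScr and lower in shAPC. In shScr 35 of the 40 genes were higher at day 7, against 55.5% of all genes, with a median log2 ratio of 0.49, or 0.45 above the all-gene median of 0.04. In shAPC 39 of 40 were lower at day 7, against 81.9% of all genes, with a median of -0.48. The all-gene median there was -0.33, so that the list lay 0.15 below it. In the kept cells the list median thus lay further from the all-gene median in shScr than in shAPC. The medians on total UMIs depended on which cells were counted. With no mitochondrial limit they were 0.26 in shScr and -0.94 in shAPC, in place of 0.49 and -0.48. When CPM were averaged cell by cell, they were 0.10 and -0.54. In the barcodes left out for mitochondrial UMIs, the summed list was lower at day 7 in shScr (-0.70, -0.75 to -0.65). The distance from the all-gene median was not computed for these alternatives, so the gap at day 7 is not divided between the libraries.

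CDC20 and CCNB1 differed from PTTG1 in shAPC over time. CDC20 had a day 7/day 3 ratio of 0.59 in shScr and -1.10 in shAPC, CCNB1 one of 0.45 and -1.04, and PTTG1 one of 0.78 and -0.38. CENPA, at 0.99 in shScr, was the only gene of the list not lower at day 7 in shAPC (0.03). A group of 5 genes was lower at day 7 in both, against 39.9% of all genes. TOP2A was lower by the widest margin (-1.10, -1.17 to -1.02 in shScr, and -1.57, -1.66 to -1.49 in shAPC). KIF20A (-0.53 and -0.97), KIF2C, a microtubule-depolymerising kinesin (-0.35 and -1.14), and TACC3 (-0.19 and -0.91) had intervals below 0 in both, and BUB1B (-0.08 and -0.88) only in shAPC. TOP2A, KIF20A, KIF2C and TACC3 were thus lower with time whichever shRNA the cells carried, whereas for BUB1B no change in shScr could be told. By sign the other genes, apart from CENPA, went in opposite directions with total UMIs as the scale. Under TMM, under DESeq2 size factors or relative to the all-gene median, 31 of the 40 genes were lower and 9 higher at day 7 in shAPC, and the counting interval lay below the all-gene median for 20, against 32.4% of all genes. When CPM were averaged cell by cell, 24 of the 40 were higher in shScr in place of 35, and the like share of all genes was not computed.

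**Figure D3:**
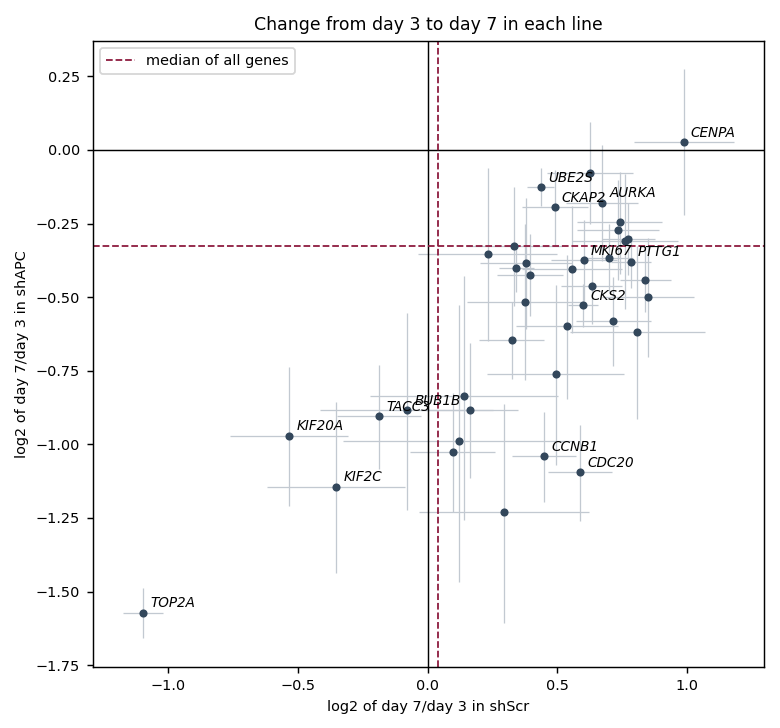
The log2 ratio of day 7 over day 3 in shScr (x axis) and in shAPC (y axis), 1 point per gene with 95% counting intervals and dashed lines at the medians of all genes. Most of the 40 genes lie in the lower right, higher with time in shScr and lower in shAPC on the scale of total UMIs (9 of 40 lie above the dashed line of shAPC), while TOP2A (-1.10 and -1.57), KIF20A, KIF2C, TACC3 and BUB1B lie in the lower left.

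To separate how many cells had a transcript from how many each held, cells of at least 10000 UMIs were thinned to exactly 10000 UMIs, which kept 765, 576, 919 and 927 cells and left out 351, 212, 1681 and 551. At day 7 the share of cells with a UMI was lower in shAPC for 40 of 40 genes, against 54% of all genes, with a median log2 ratio of the shares of -0.63. The mean number of UMIs per positive cell was lower for 30 of 40, against 53.9% of all genes, but with a median of only -0.10. The share made up more of the difference than the UMIs per positive cell for 36 of the 40 genes. At day 3 the same held for 33 of the 40, and the like count over all genes was not made. With so few UMIs per positive cell a difference falls mostly in the share, so nothing is read from these counts. The mean per positive cell was close to the least it can be, since its median over the genes was 1.42 to 1.56 in the 4 libraries, and a positive cell has at least 1 UMI. At day 7, 27 genes were under 1.5 UMIs per positive cell in shAPC and 17 in shScr. For the genes under 1.5 in both, no change per cell can be read at this depth. The rest of the 27 were at 1.5 or more in shScr, and so lower in shAPC by this choice. Among them were CCNB1 (2.06 in shScr and 1.45 in shAPC), CKS1B (1.93 and 1.45) and AURKA (1.76 and 1.43).

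The 13 genes with at least 1.5 UMIs per positive cell in shAPC at day 7 did not all behave alike, with 9 lower and 4 higher per positive cell than in shScr. These counts leave out the genes that reached 1.5 in shScr alone, all of them lower in shAPC. PTTG1 was detected in 32.3%, 36.3%, 41.6% and 31.2% of the thinned cells, with 2.23, 2.48, 2.81 and 2.07 UMIs per positive cell. Of its log2 difference of -0.86 between the thinned day 7 cells, -0.42 was in the share and -0.44 in the UMIs per positive cell. CKS2 had 3.32 UMIs per positive cell in shScr and 1.97 in shAPC at day 7, and UBE2S had 3.99 and 2.73. CDC20 (log2 ratio per positive cell -0.42), UBE2C (-0.41) and HMGB2 (-0.34) were also lower, whereas CENPF (-0.09), CCNA2 (-0.04), HMMR (-0.02), ANLN (0.02), MKI67 (0.02) and CDK1 (0.12) were close to 0. TOP2A had the highest ratio per positive cell of the 13 (0.27), with 24.9% positive cells in shScr and 16.8% in shAPC at day 7 but 2.56 and 3.09 UMIs per positive cell. At day 3 its positive cells had held 5.74 and 5.72 UMIs. Without thinning, PTTG1 was detected in 47.4%, 57.7%, 29.7% and 36.3% of the kept cells. At day 7 this order goes against the CPM, and the median depth was 1330 UMIs in shScr and 21029.5 in shAPC, so nothing is read from it.

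The number of the 40 genes detected in a cell separated a small set of cells from the majority. At least 10 of the 40 were detected in 149 of 765 cells of shScr at day 3 (19.5%, exact binomial interval 16.7% to 22.5%), in 136 of 576 of shAPC at day 3 (23.6%, 20.2% to 27.3%), in 261 of 919 of shScr at day 7 (28.4%, 25.5% to 31.4%) and in 164 of 927 of shAPC at day 7 (17.7%, 15.3% to 20.3%). The share was thus highest in shScr at day 7, and at day 7 it was 10.7 percentage points lower in shAPC. These cells, a range of a count and not a cell type, held 71.8% to 81.3% of all UMIs of the 40 genes. Between 10 and 28 cells per library lay at the border, with 9 or 10 genes detected. Cells with 2 or fewer of the genes made up 44.8%, 37.7%, 34.2% and 49.1% of the libraries in the same order.

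**Figure D4:**
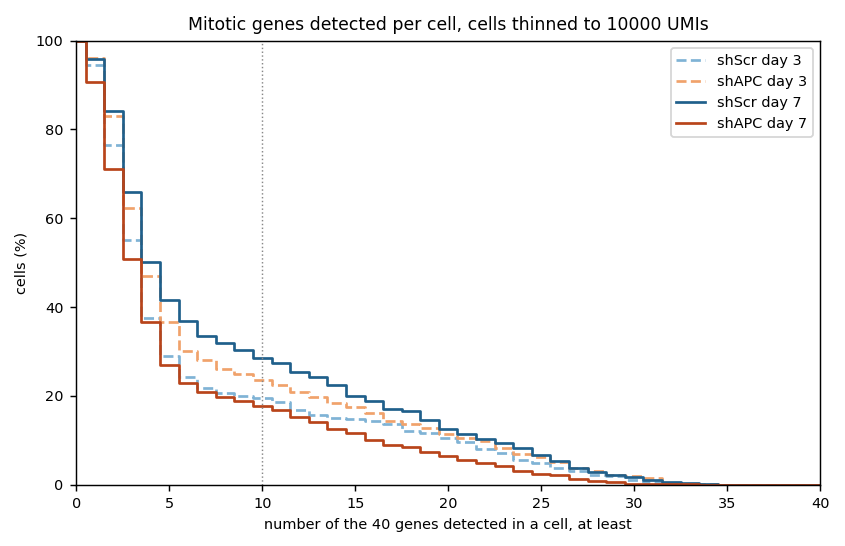
The percentage of cells (y axis) in which at least the number of the 40 genes on the x axis was detected, for cells thinned to 10000 UMIs, 1 line per library (dashed for day 3, solid for day 7) and a dotted line at 10 genes. At 10 genes the shScr line of day 7 is at 28.4% and the shAPC line of day 7 at 17.7%, with both day 3 lines between them.

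PTTG1 followed this gradient in all 4 libraries. In cells with 2 or fewer of the other 39 genes it was detected in 16.1%, 15.3%, 18.9% and 14.9% of cells at the same thinned depth, which is the background against which the other shares are read. In cells with 20 or more of the other genes it was detected in 83.8%, 85.5%, 93.3% and 94.2%. Its positive cells were also richer in the rest of the list. All 39 other genes had a higher share of positive cells among PTTG1-positive than PTTG1-negative cells in each of the 4 libraries, against 33.4% of all genes, with medians of 20.8% to 29.1% against 4.23% to 5.4%. At the same number of other genes detected, the PTTG1 level in shScr and shAPC at day 7 was 23.8 and 20.4 CPM in cells with 2 or fewer, 66.1 and 66.8 CPM with 3 to 9, 253 and 148 CPM with 10 to 19, and 386 and 304 CPM with 20 or more. The day 7 difference of PTTG1 in CPM was thus largest in the cells with 10 or more of the other genes.

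In the cells with fewer than 10 of the other 39 genes the median day 7 ratio was -0.45, with 31 of 40 genes lower. The counting interval there lay below 0 for 9 genes and above 0 for 1, and the like shares of all genes were not computed. Within the cells rich in mitotic genes the day 7 difference was also smaller than over all cells, and it held for only some of the 40. For each gene these cells were taken as those with at least 10 of the other 39, so that the gene itself did not choose them, although the other genes did and had themselves differed. Such cells were not matched between the libraries. At day 7 those with at least 10 of the 40 genes had a median of 19 genes and 40 UMIs of the list in shScr, against 17 and 30.5 in shAPC. The median log2 ratio was -0.25, with 29 of 40 genes lower, against 48.2% of all genes in such cells. The counting interval lay below 0 for 16 genes, against 11.8% of all genes, and above 0 for 1, against 10.1%. All 4 genes of securin and the APC/C route were among the 16, with ratios of -0.83 for CDC20 (-1.15 to -0.52), -0.62 for PTTG1 (-0.82 to -0.43), -0.47 for UBE2C and -0.46 for UBE2S. CKS2 (-1.01, -1.18 to -0.84), CCNB1 (-0.96, -1.30 to -0.63), BUB1 (-0.94), AURKA (-0.84), CENPA (-0.74), CKS1B (-0.70), NUF2 (-0.67), DLGAP5 (-0.55), CDCA3 (-0.51), PLK1 (-0.48), BUB3 (-0.42) and HMGB2 (-0.25) were the others. In CCNB1 the level in these cells was 130 and 120 CPM at day 3 and 119 and 61.0 CPM at day 7, so that shAPC at day 7 stood apart from the other 3 libraries.

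The remaining genes had intervals that included 0 in these cells, apart from TOP2A. CDK1 was at 79.3 CPM in shScr and 88.3 CPM in shAPC at day 7 (0.15, -0.16 to 0.47) and MKI67 at 128 and 120 CPM (-0.09, -0.35 to 0.17), and CCNA2 (0.08), ANLN (-0.02), CENPF (-0.10) and TPX2 (-0.14) were likewise near 0. For these genes a difference within such cells was not detectable at this depth, whereas over all cells each of them had an interval below 0. TOP2A was higher in shAPC within the cells rich in mitotic genes (0.38, 0.20 to 0.57). Its level there was 656 and 620 CPM at day 3 and 210 and 274 CPM at day 7, so that the lower day 7 level in both shScr and shAPC was seen in the cells that hold the other mitotic transcripts too. KIF20A (62.3, 65.7, 28.2 and 35.2 CPM) and KIF2C (43.2, 47.0, 21.8 and 29.9 CPM) had the same order of days in these cells. At day 3 the median ratio in such cells was -0.01, with intervals below 0 for 4 genes (AURKA, UBE2S, CENPE and CKS2), against 5.65% of all genes, and above 0 for 3 (NUF2, CDK1 and HMMR), against 8.78%.

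**Figure D5:**
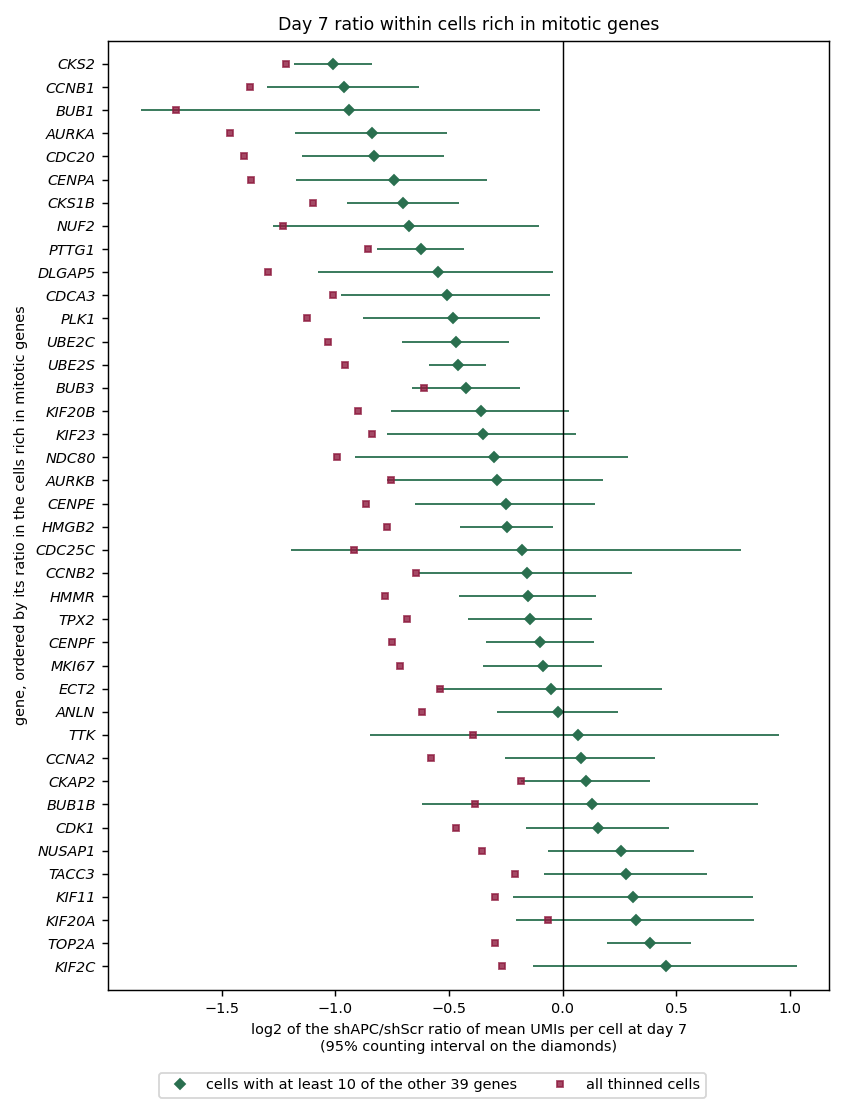
The log2 shAPC/shScr ratio of mean UMIs per thinned cell at day 7 (x axis) for each gene (y axis), over all thinned cells (squares) and over cells with at least 10 of the other 39 genes (diamonds, with 95% counting intervals). The squares lie below 0 for all 40 genes, and the diamonds run from -1.01 for CKS2 to 0.45 for KIF2C, with TOP2A the only gene whose interval lies above 0.

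As a set, mitotic genes outside the list differed less in the median. Some of them differed about as much as the list, such as CDKN3 (-0.81), ASPM (-0.68) and BIRC5 (-0.59), while 19 were higher in shAPC at day 7. Both sets were chosen with earlier results known, so this comparison does not set the 40 genes apart. Of 90 other genes of mitosis, 71 were lower in shAPC at day 7, against 55.6% of all genes, with a median ratio of -0.27, and 2 were at least 2-fold lower, against 1.58%. In the list of 40 the count of 2-fold lower genes was 5 (CDC20, AURKA, CCNB1, CENPA and CKS2), but it was 13 with no mitochondrial limit or one of 10%, 8 without the 5% of cells with the most UMIs, and 3 with totals free of mitochondrial and ribosomal protein genes. The share of all genes was not computed under these alternatives, so their counts are not read as particular to the list. The lowest of the other genes were SPC25, a partner of NUF2 and NDC80 at the kinetochore (-1.12), CENPM, a centromere protein (-1.02), and NCAPG, a subunit of condensin (-0.91). At the other end were KIF22, a chromosome-arm kinesin (0.60), MAD1L1, which anchors MAD2 at kinetochores (0.50), and ANAPC2, a core subunit of the APC/C (0.45). By role the median was -0.59 for the 3 other genes of the passenger complex, -0.41 for the 8 condensin genes and -0.40 for the 14 checkpoint partners. It was -0.18 for the 12 genes of separase and cohesin and -0.09 for the 16 APC/C subunits and CDH1, and 0.05 for the 8 transcription factors of G2 and M, close to the all-gene median of -0.04. Of 40 genes of DNA replication, 27 were lower, with a median of -0.18.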

How the data were processed

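The 40 genes and the other gene lists were chosen with earlier results of these data known. The authors aligned droplet scRNA-seq reads to GRCh38 with Cell Ranger and STAR, per the submitters' processing notes, and deposited raw UMI counts for each gene and cell barcode. Per the file headers, Cell Ranger 3.0.2 wrote both shScr matrices and 3.0.0 both shAPC matrices, so software version and shRNA cannot be told apart. The sources differ on the virus (retroviral or lentiviral) and on the kit version, which are not used here.

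A barcode entered the analysis if it had 200 genes and 500 UMIs or more, with the 13 mitochondrial genes making up less than 5% of its UMIs. This left 1116, 788, 2600 and 1478 cells of shScr and shAPC at day 3 and of shScr and shAPC at day 7. No doublets were called or removed. Counts were summed per library and scaled to CPM. CPM had exact Poisson intervals, ratios exact conditional binomial intervals and shares Clopper-Pearson intervals, all at 95%, and the interval of day 7 minus day 3 came from Poisson variances. A count of 0 would have been set to a floor of 3, which no listed gene needed. Genes named in full were PTTG1, CCNB1, CCNB2, CCNA2, CDK1, CDC20, PLK1, AURKA, AURKB, BUB1B, UBE2C, CKS2, TOP2A and MKI67 by name, with the 5 lowest and the 5 highest ratios at day 7. KIF2C, UBE2S and the genes listed within the rich cells were named after their values were seen. Alternatives used edgeR 4.0.16 (TMM) and DESeq2 1.42.0 for scaling only. Thinning and ratios, run with numpy 2.4.6 and scipy 1.17.1, were tested on simulated data with known changes.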

Additional observations from a re-analysis of the deposited data

Results flagged for a closer look

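Relative to the median of all genes, 10 of the 40 genes had a shAPC/shScr counting interval above that median at day 3 and below it at day 7, against 6.88% of all 9173 genes. The difference of the log2 ratios (day 7 minus day 3) was -1.17 for BUB1, -1.07 for NUF2, -0.99 for KIF20B, -0.94 for HMMR, -0.92 for HMGB2, -0.74 for CENPF, -0.65 for CDK1, -0.63 for CCNA2, -0.62 for MKI67 and -0.61 for TPX2. With 1 library per group this change of direction was not tested.

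The barcodes left out for a mitochondrial share of 5% or more also held transcripts of the 40 genes. At day 3 they were at a summed 1499 CPM in shAPC against 1243 CPM in shScr (log2 ratio 0.27, counting interval 0.22 to 0.32). At day 7 the order was the opposite, with 486 CPM in shAPC against 766 CPM in shScr (-0.66). Between shAPC and shScr, the barcodes left out thus had the same order as the kept cells at both days. Over time in shScr they went the other way. Their summed level was lower at day 7 than at day 3 (log2 ratio -0.70, -0.75 to -0.65), whereas in the kept cells it was higher (0.41).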

How the results depend on the processing

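The day 7 median of the 40 genes kept its direction under all 12 alternatives, at -0.59 to -0.77 (all 40 genes lower, except 39 of 40 when CPM were averaged cell by cell, and 16 of the 16 with at least 20 CPM), and so did the difference in the share of cells with at least 10 genes and the medians of the share and of the UMIs per positive cell under theirs. The day 3 median depended on the scaling: it was -0.0017 with TMM, 0.013 with DESeq2 size factors, 0.064 relative to all genes and 0.062 when CPM were averaged cell by cell, against 0.38. The day 7/day 3 median in shAPC was -0.16 with TMM, -0.17 with DESeq2 size factors, -0.15 relative to all genes and -0.30 with totals free of mitochondrial and ribosomal protein genes, in place of -0.48. It was -0.94 with mitochondrial UMIs under 10% and -0.94 with no mitochondrial limit, while that in shScr was 0.28 and 0.26 in the same order, and 0.10 when CPM were averaged cell by cell, in place of 0.49. The count of genes at least 2-fold lower in shAPC at day 7 was 3 with totals free of mitochondrial and ribosomal protein genes, 8 without the 5% of cells with the most UMIs, 13 under 10% and 13 with no mitochondrial limit, in place of 5. The like shares of all genes were not computed. Thinned to 2000 UMIs, the share of cells with at least 10 genes differed by -3.22 points in place of -10.7. The cause of these shifts was not tested. Of the 18 genes named in full, none turned direction at day 7 under any alternative, and up to 7 did at day 3 (with TMM). With all genes taken from a mean of 1 or of 20 CPM in place of 5, their median ratio was 0.34 or 0.24 at day 3 and -0.02 or -0.09 at day 7. Leaving out barcodes found in 2 libraries was chosen after seeing the data. No paired analysis was possible because the labels give no replicate numbers and each group is 1 library, so no replicate could be left out either.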
